A study of Homo sapiens with 4 samples.

Results

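Long intergenic noncoding RNAs (lincRNAs) expressed in NUGC3 cells, a human gastric cancer cell line, were compared between control cells and cells with less NIPBL. They were chosen by 4 criteria from the deposited expression table: an Ensembl gene identifier, the table's own biotype lincRNA, a mean over the 4 libraries of at least 1 FPKM (an abundance that takes account of how long the transcript is and how much was sequenced), and not being listed at 0 in 2 or more libraries. Of 7107 lincRNA rows, 1896 were above 0 in any library, 308 reached the mean of 1 FPKM, and 297 remained after 11 were left out for their zeros. They were thus selected on their mean level over the 4 libraries, which is given as a description. The difference between the groups was not used.

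All 4 libraries were made from total RNA of NUGC3 cells. There were 2 libraries from cells transfected with a scramble control (scramble 1 and scramble 2). The other two came from cells labelled as NIPBL knockdown, 1 with short hairpin 1 and 1 with short hairpin 7, so each hairpin is a single library. The letters DOX stand in every label, unexplained, and the control libraries carry them too. The name of scramble 2 is that of scramble 1 with an added suffix, and the labels name no separate cultures within a group. P-values here reflect how far these 4 libraries spread, and that spread may be technical.

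LincRNAs are transcribed by RNA polymerase II from DNA between protein-coding genes, and most are capped, spliced and polyadenylated like messenger RNA. As a class they are made at lower levels than messenger RNAs and vary more between cell types. Some act at their own locus, some build nuclear bodies, and others are mainly precursors whose introns or exons carry microRNAs or small nucleolar RNAs (snoRNAs). NIPBL loads cohesin, the ring complex that folds chromosomes into loops and brings enhancers near promoters.

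NIPBL itself checks the labels. It was at 23.92 and 23.11 FPKM under scramble, 7.27 FPKM under hairpin 1 and 9.17 FPKM under hairpin 7, so the knockdown mean was 35.0% of the scramble mean (log2 change -1.42 ± 0.14 (SE), adjusted p = 0.0218). The summed level of 6 epithelial markers lay between 4214 and 5181 FPKM per library, most of it KRT8 and KRT18. Within that sum KRT19 was higher in the knockdown libraries (655.38 and 661.43 FPKM under scramble, 982.21 and 1061.6 FPKM under the hairpins) and KRT18 lower (2092.3 and 2131.2 FPKM, then 1368.3 and 1754.5 FPKM), and 0 of the 6 passed in limma, with 3 higher and 1 lower at an unadjusted p under 0.05. Of 8 gastric mucosa markers, GATA4 and GATA6 were expressed at 5.19 to 10.73 FPKM, TFF1 reached 2.48 FPKM, and the other 5 (MUC5AC, MUC6, TFF2, GKN1 and CLDN18) stayed at or below 0.49 FPKM in every library. The leukocyte marker PTPRC and the fibroblast marker COL1A2 were listed at 0 in all 4 libraries. Another fibroblast marker, the collagen gene COL1A1, was expressed, at 6.57 and 5.75 FPKM under scramble, 9.39 FPKM under hairpin 1 and 7.34 FPKM under hairpin 7. CD68, a lysosomal protein also used as a macrophage marker, was at 12.41 and 17.08 FPKM under scramble, 31.48 FPKM under hairpin 1 and 37.71 FPKM under hairpin 7. The part of COL1A1 and CD68 in the lincRNA results was not tested. In bulk RNA, fewer cells with a transcript and less of it per cell cannot be told apart. CD3E, CD79A, VWF, CDH5, DCN, LUM and PDGFRB were each at or below 0.95 FPKM.

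Together the 297 lincRNAs held 0.302% of the FPKM of each scramble library, 0.313% with hairpin 1 and 0.350% with hairpin 7. Most were low: 126 had a mean between 1 and 2 FPKM and 94 between 2 and 5 FPKM. Another 34 lay between 5 and 10 FPKM, 35 between 10 and 50 FPKM, 3 between 50 and 100 FPKM, and 5 at 100 FPKM or more. The 10 highest made up 43.5% to 45.4% of the lincRNA total of a library. The median level was 2.51 FPKM, against 15.1 FPKM over the 11514 protein-coding genes tested and 2.37 FPKM over 317 antisense genes. At the edge of the rule, TERC (1.02 FPKM), RP11-92K15.3 and the row named 5S_rRNA (1.02 FPKM each) were just inside, and RP11-932O9.10 (0.990 FPKM), HAR1A and C11orf95 (0.993 FPKM each) were just outside.

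**Figure D1:**
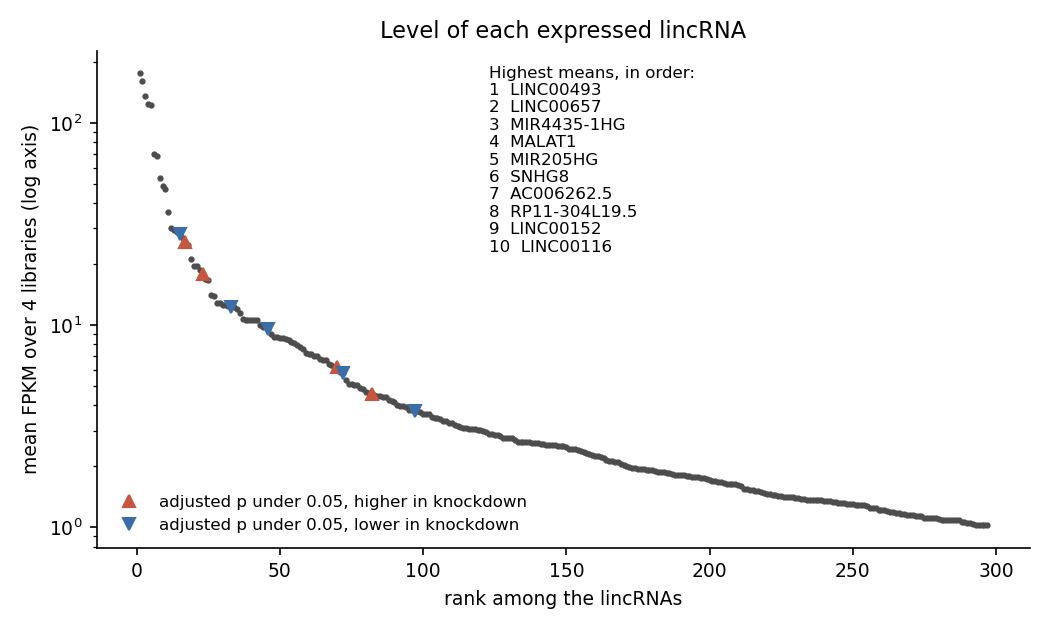
Mean FPKM over the 4 libraries (log axis) of each of the 297 lincRNAs, ranked from the highest. Grey points are lincRNAs that did not pass the test, and triangles are the 4 that passed with a higher and the 5 with a lower level in the knockdown libraries; all 9 have means above 2 FPKM.

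Of the 297 identifiers, 228 (76.8%) were found in GENCODE 29, the GRCh38 annotation used for positions, and 69 were not. That is below 80%, so no property of the annotation was compared over the set as a whole. Later annotation had changed the type of some: 192 were still typed lincRNA, 9 were typed protein-coding, 11 were pseudogene types and 2 were snoRNA genes. A protein-coding gene overlapped 54 of them, 49 started within 1 kb of the start of a protein-coding gene on the opposite strand (head to head), and 134 did neither. The strand setting of the counting is not given in the sources used here, so reads of a lincRNA and of an overlapping gene could not be told apart.

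After NIPBL knockdown, 9 of the 297 lincRNAs (3.03%) passed the test, against 2.56% of all 12834 genes tested. LINC00973, LINC00511, the precursor RNA of the microRNAs miR-23a, miR-27a and miR-24-2, and RP11-254F7.4 rose, 4 in all against 1.45% of all genes. AC115522.3, GS1-600G8.5, CTD-2086O20.3, LINC00665 and RP11-65J3.1 fell, 5 in all against 1.11% of all genes. The share called was near that of all genes over the whole set. By level it differed, though on few calls. At 1 to 2 FPKM 0 of 126 lincRNAs passed in limma (20 at an unadjusted p under 0.05), against 1.06% of protein-coding genes, and at 2 to 5 FPKM 2.13%, against 2.02%. At 5 to 10 FPKM 3 of 34 passed (8.82%, against 2.34%), and at 10 FPKM or more 4 of 43 (9.3%, against 2.89%). These calls rest on both scramble libraries: without scramble 1, and likewise without scramble 2, every lincRNA call and the call of every other gene was lost. Without hairpin 1, 70 lincRNAs and 4532 genes passed, and without hairpin 7, 47 and 2915. Over all rows above 0, 0 lincRNAs passed in limma, with 60 of the 297 at an unadjusted p under 0.05, against 4275 of all 25230 genes. All 9 kept their direction in each alternative run.

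LINC00973, an intergenic RNA of chromosome 3 (98981058 to 98983096, plus strand, 2 exons), had the largest rise of the 297 on the log2(FPKM + 1) scale, though at a pseudocount of 0.01 its log2 change (3.98) was below those of RP11-53M11.3 (4.42) and the row named 5S_rRNA (4.19). It was at 1.83 and 2.33 FPKM under scramble, 40.95 FPKM under hairpin 1 and 26.15 FPKM under hairpin 7. Both knockdown libraries stood far above both scramble libraries, a 16.1-fold ratio of the means (log2 change 3.46 ± 0.24, adjusted p = 0.0126). Its nearest protein-coding genes did not pass. DCBLD2, 79369 bp away, was at 89.13 and 91.46 FPKM under scramble, 94.89 FPKM under hairpin 1 and 94.57 FPKM under hairpin 7. COL8A1, a collagen chain 655379 bp away, was at 360.45, 365.56, 379.08 and 119.07 FPKM in the same order, so that hairpin 7 alone was low.

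The row named MIR24-2 in the deposited table (ENSG00000267519) is the long precursor transcript now called MIR23AHG, on chromosome 19 (13823880 to 13842928, minus strand), and not the small RNA of that name. It was at 11.98 and 13.25 FPKM under scramble, 41.90 FPKM under hairpin 1 and 35.24 FPKM under hairpin 7. The groups did not overlap, and the ratio of the means was 3.06 (log2 change 1.54 ± 0.13, adjusted p = 0.0180). ZSWIM4, which overlaps it on the opposite strand, was at 4.54 and 4.49 FPKM under scramble and 5.24 and 4.70 FPKM under hairpins 1 and 7 (log2 change 0.11 ± 0.13, adjusted p = 0.624).

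LINC00511, a cancer-linked lincRNA of chromosome 17 (72290091 to 72640472, minus strand), was at 1.33 and 2.10 FPKM under scramble, 7.17 FPKM under hairpin 1 and 7.50 FPKM under hairpin 7. The hairpins gave nearly the same level, 4.28-fold above the scramble mean (log2 change 1.63 ± 0.19, adjusted p = 0.0326). SOX9, a transcription factor of progenitor cells whose gene lies 163671 bp away, was at 38.43 and 38.34 FPKM under scramble, 60.38 FPKM under hairpin 1 and 50.42 FPKM under hairpin 7, and did not pass (log2 change 0.51 ± 0.12, adjusted p = 0.0908). RP11-254F7.4 (ENSG00000272524, without a GENCODE 29 match) was at 3.44 and 4.09 FPKM under scramble, 9.05 FPKM under hairpin 1 and 8.19 FPKM under hairpin 7 (log2 change 1.02 ± 0.14, adjusted p = 0.0443).

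Of the lincRNAs that fell, AC115522.3 (ENSG00000268601, chromosome 19, 43794309 to 43795658, minus strand, 2 exons) fell furthest. It was at 7.70 and 5.54 FPKM under scramble, 0.61 FPKM under hairpin 1 and 1.17 FPKM under hairpin 7, so the scramble mean was 7.44-fold that of the knockdown (log2 change -2.01 ± 0.24, adjusted p = 0.0351). With a knockdown mean of 0.89 FPKM it met the level rule only through the scramble group, where it is high. It lies 271 bp beyond the 3′ end of LYPD5 on the same strand, and reads running past that end could not be told apart from its own. LYPD5, a membrane-anchored protein gene, was at 197.95 and 206.27 FPKM under scramble, 30.11 FPKM under hairpin 1 and 43.39 FPKM under hairpin 7 (log2 change -2.45 ± 0.19, adjusted p = 0.0161). On its other side KCNN4, a calcium-activated potassium channel gene, fell as well (log2 change -1.15 ± 0.16, adjusted p = 0.0445).

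LINC00665, described elsewhere as the source of a micropeptide, lies among zinc finger genes on chromosome 19 (36313067 to 36331718, minus strand). It was at 40.56 and 43.56 FPKM under scramble, 16.85 FPKM under hairpin 1 and 11.52 FPKM under hairpin 7 (log2 change -1.53 ± 0.19, adjusted p = 0.0386), and was the most abundant lincRNA to pass. The zinc finger gene ZFP14, 2735 bp away on the same strand, was at 5.16 and 4.57 FPKM under scramble and 2.08 and 1.96 FPKM under hairpins 1 and 7, just short of the threshold (log2 change -0.96 ± 0.15, adjusted p = 0.0531). GS1-600G8.5, now LINC02154 on chromosome X (13266048 to 13303452, minus strand), was at 9.48 and 8.93 FPKM under scramble, 1.85 FPKM under hairpin 1 and 2.89 FPKM under hairpin 7 (log2 change -1.62 ± 0.19, adjusted p = 0.0336). Its neighbours FAM9C and ATXN3L were at or below 0.19 FPKM.

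CTD-2086O20.3 (ENSG00000267381, without a GENCODE 29 match) was at 19.59 and 18.36 FPKM under scramble, 5.08 FPKM under hairpin 1 and 6.19 FPKM under hairpin 7 (log2 change -1.59 ± 0.13, adjusted p = 0.0180). RP11-65J3.1, now LINC01503 and known as a super-enhancer-driven RNA of squamous cancers, lies on chromosome 9 (129332300 to 129359538, plus strand). It was at 12.87 and 12.38 FPKM under scramble, 6.27 FPKM under hairpin 1 and 6.79 FPKM under hairpin 7, the smallest change of those that passed (log2 change -0.86 ± 0.11, adjusted p = 0.0409). NTMT1, 249346 bp from it, also fell (log2 change -0.68 ± 0.10, adjusted p = 0.0484).

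**Figure D2:**
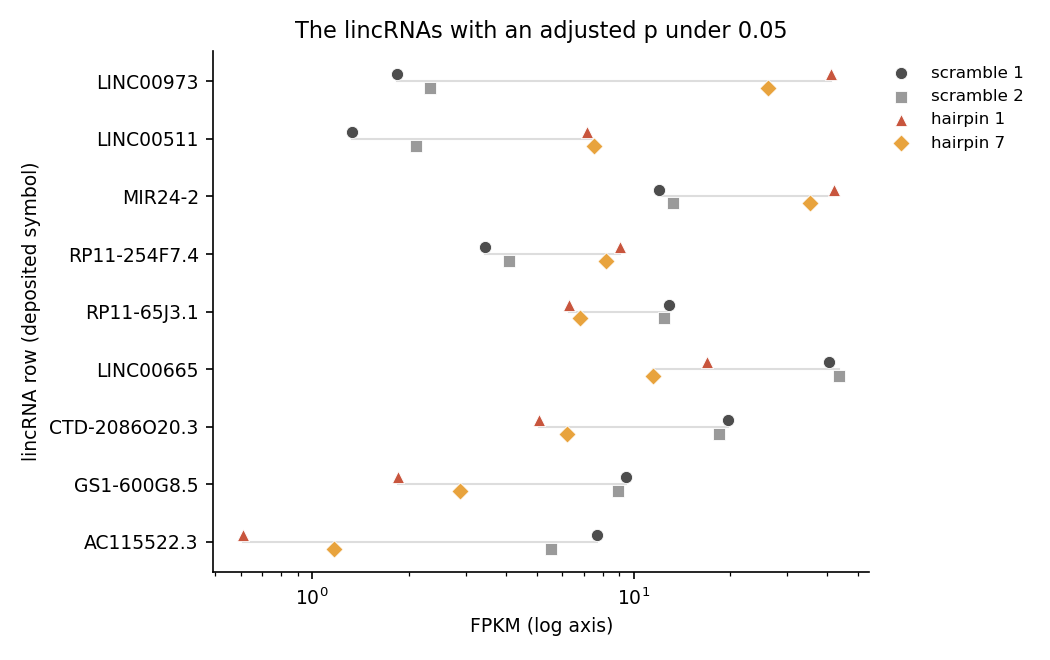
FPKM (log axis) in each of the 4 libraries for the 9 lincRNAs with an adjusted p under 0.05, ordered by log2 change. Grey circles and squares are the scramble libraries, triangles hairpin 1 and diamonds hairpin 7; in all 9 both hairpins lie on the same side of both scramble libraries.

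Promoter sequences were available for 4 of the 9, and are shown because those lincRNAs differ in base composition and in the motifs searched. Each window runs from 250 bases before to 50 after the RefSeq start (GRCh38.p14), 5′ to 3′ on the gene's strand, with motif matches in capitals. The windows are chr3:98980805-98981104 (plus strand) for LINC00973, chr19:13842869-13843168 (minus) for MIR23AHG, chr17:72640423-72640722 (minus) for LINC00511 and chr19:36331704-36332003 (minus) for LINC00665.
LINC00973: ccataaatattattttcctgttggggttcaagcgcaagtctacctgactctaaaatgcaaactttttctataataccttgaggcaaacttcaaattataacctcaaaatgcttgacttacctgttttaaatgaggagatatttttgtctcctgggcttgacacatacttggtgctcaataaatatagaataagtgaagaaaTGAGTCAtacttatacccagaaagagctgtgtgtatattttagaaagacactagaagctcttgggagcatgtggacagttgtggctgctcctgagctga
MIR23AHG: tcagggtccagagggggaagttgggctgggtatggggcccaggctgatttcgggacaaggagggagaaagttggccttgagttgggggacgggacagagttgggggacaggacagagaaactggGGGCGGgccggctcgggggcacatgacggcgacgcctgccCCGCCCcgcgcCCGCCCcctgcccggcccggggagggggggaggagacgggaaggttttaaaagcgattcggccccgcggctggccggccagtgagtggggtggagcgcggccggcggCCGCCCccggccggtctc
LINC00511: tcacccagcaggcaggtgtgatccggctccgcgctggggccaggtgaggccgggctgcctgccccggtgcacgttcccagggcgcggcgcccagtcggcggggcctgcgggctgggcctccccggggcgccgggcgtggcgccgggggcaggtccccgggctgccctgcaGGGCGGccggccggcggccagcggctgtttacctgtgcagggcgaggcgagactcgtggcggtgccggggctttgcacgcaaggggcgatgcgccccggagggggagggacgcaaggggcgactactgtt
LINC00665: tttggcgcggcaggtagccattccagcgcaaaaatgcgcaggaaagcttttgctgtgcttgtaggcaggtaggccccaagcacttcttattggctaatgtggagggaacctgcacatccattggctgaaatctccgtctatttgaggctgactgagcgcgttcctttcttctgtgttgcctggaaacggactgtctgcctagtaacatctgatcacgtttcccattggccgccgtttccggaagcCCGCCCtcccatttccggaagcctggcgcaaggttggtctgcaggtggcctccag

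In the LINC00973 window, 37.3% of bases were G or C, and the capitals mark a single AP-1 motif (TGANTCA). The other 3 windows had 55.3% (LINC00665), 72.3% (MIR23AHG) and 78.0% (LINC00511) G or C, and their capitals mark only GC boxes (CCGCCC or its reverse complement), 4 in MIR23AHG and 1 each in LINC00511 and LINC00665. Promoters of 113 of the 297 lincRNAs were found in a table of 35116. Searched on both strands, the AP-1 motif was in 14 of the 113 (12.4%, against 7.71% of all promoters) and the GC box in 63 (55.8%, against 45% of all). The E-box CACGTG was in 10 (8.85%, against 7.26%), the cyclic AMP response element TGACGTCA in 2 (1.77%, against 1.85%), and the interferon response motif in 2 (1.77%, against 3.57%). None of these motifs holds another within it. A match describes letters in the window only.

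Beyond the lincRNAs that passed, 73 of the 297 had an unadjusted p under 0.05 (26.4% of all genes did), 47 of them higher (13.6% of all genes) and 26 lower (12.8% of all genes). In 153 the groups did not overlap (60.3% of all genes), with the knockdown higher in 94 (29.5% of all genes) and lower in 59 (30.8% of all genes). The median log2 change was 0.08 over the lincRNAs, against -0.01 over all genes tested and 0.08 over antisense genes. After quantile normalization the lincRNA median was 0.033, and scaled to TPM it was 0.122. The sign was positive for 173 and negative for 124 of the 297, and for 157 and 140 after quantile normalization. The level rule itself can shift these values, since some lincRNAs met it through 1 group only. Over the 248 at 1 FPKM or more in both group means, the median was 0.06, with 142 positive and 106 negative. Each hairpin on its own gave a positive median, 0.07 with hairpin 1 and 0.13 with hairpin 7, both set against the same scramble libraries.

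Among genes with a mean of 1 to 2 FPKM the median log2 change was 0.06 over 126 lincRNAs and 0.08 over 753 protein-coding genes. At 2 to 5 FPKM it was 0.06 over 94 and 0.04 over 1534, and at 5 to 10 FPKM 0.18 over 34 and 0.02 over 1964. Among those at 10 FPKM or more it was 0.08 over 43 lincRNAs and -0.04 over 7263 protein-coding genes. Spread between libraries of the same group was also wider for lincRNAs than over all genes. The SD of the log2 difference between the scramble libraries was 0.47, against 0.28 over all genes, and between the hairpins it was 0.60, against 0.45. Antisense genes spread more still, with 0.69 and 0.89. At 10 FPKM or more these SDs were 0.29 and 0.70 over lincRNAs, against 0.11 and 0.36 over protein-coding genes.

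**Figure D3:**
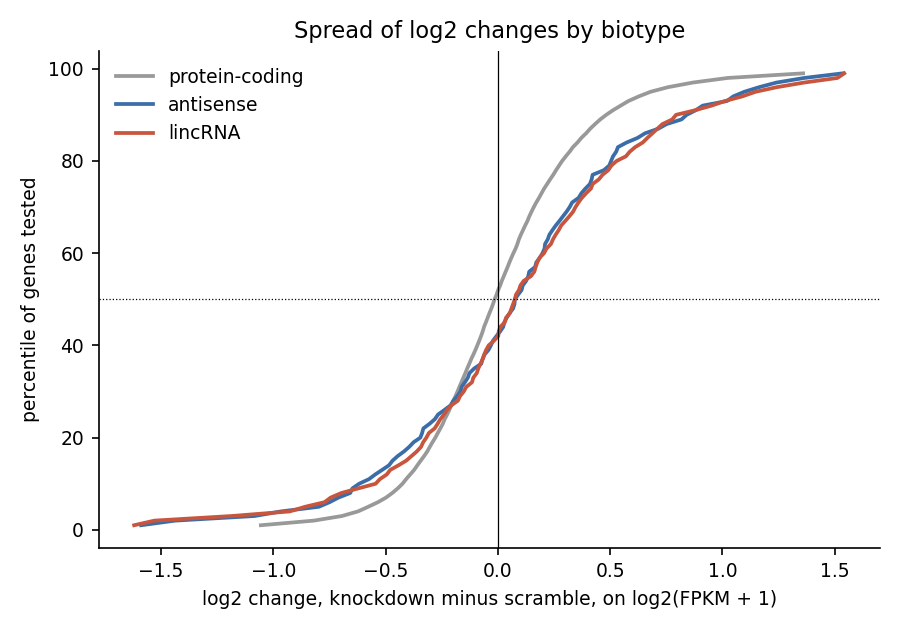
Percentile of genes tested (vertical) against log2 change on the log2(FPKM + 1) scale, knockdown minus scramble (horizontal), for 297 lincRNAs, 317 antisense genes and 11514 protein-coding genes. The lincRNA and antisense curves run close together, reach their medians at 0.08 and are wider than the protein-coding curve.

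Both hairpins lay at least 1.5-fold outside both scramble libraries, on the log2(FPKM + 1) scale, for 35 lincRNAs (11.8%), against 5.58% of all genes. At a minimum mean of 5 FPKM 77 lincRNAs remained, and 16 of them met the rule. The count was between 57 (without scramble 1) and 69 (without hairpin 1) when 1 library was left out. It can only rise there, since fewer values then have to meet the rule. The knockdown was above in 23 (7.74%, against 3.3% of all genes) and below in 12 (4.04%, against 2.28% of all genes). At 1 to 2 FPKM that share was 9.52% of lincRNAs and 9.16% of protein-coding genes, and at 2 to 5 FPKM it was 7.45% and 7.56%. At 5 to 10 FPKM it was 7 of 34 lincRNAs (20.6%) and 5.6% of protein-coding genes, and at 10 FPKM or more 9 of 43 lincRNAs (20.9%) and 307 of 7263 protein-coding genes (4.23%). In all, 49 lincRNAs reached a mean of 1 FPKM in only 1 of the groups (31 in the knockdown, 18 in the scramble). Over the other 248, which passed in both, 8 were called (3.23%), the 9 without AC115522.3, and 23 (9.27%) met the 1.5-fold rule.

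Several of these had log2 changes as large as those that passed but did not pass themselves. RP11-301G19.1, on chromosome 6, whose neighbours EYS and ADGRB3 were at or below 0.35 FPKM, was at 3.65 and 4.21 FPKM under scramble, 9.30 FPKM under hairpin 1 and 18.83 FPKM under hairpin 7 (log2 change 1.54 ± 0.33, adjusted p = 0.0800). RP5-884M6.1 was at 1.13 and 1.17 FPKM under scramble and 2.90 and 7.06 FPKM under hairpins 1 and 7 (adjusted p = 0.109). RP11-702B10.2 was at 0.72 and 0.18 FPKM, then 2.01 and 4.56 FPKM (adjusted p = 0.0980), and met the level rule only through the knockdown group. In each of these 3 both hairpins were above both scramble libraries, with hairpin 7 the higher. LINC00941 (5.29 and 7.00 FPKM under scramble, 13.45 and 13.10 FPKM under the hairpins, adjusted p = 0.0509) and RP13-463N16.6, now LASTR (14.22 and 16.40 FPKM, then 29.21 and 47.39 FPKM, adjusted p = 0.0736), were picked out after their values were seen.

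The nuclear body RNAs were abundant. MALAT1, a long unspliced RNA of nuclear speckles, was at 103.54 and 116.77 FPKM under scramble, 117.33 FPKM under hairpin 1 and 158.36 FPKM under hairpin 7 (log2 change 0.31 ± 0.17, adjusted p = 0.315). NEAT1, the scaffold of paraspeckles, was at 9.22 and 10.94 FPKM under scramble, 12.68 FPKM under hairpin 1 and 16.02 FPKM under hairpin 7 (log2 change 0.47 ± 0.16, adjusted p = 0.159). In both, each knockdown library lay above each scramble library, but neither passed the test. Of the 16 genes for paraspeckle proteins, 0 passed in limma, 3 had an unadjusted p under 0.05, all lower (12.8% of all genes), and all 16 log2 changes were negative, 14 when scaled to TPM and 15 under quantile normalization (median -0.22, against -0.01 over all genes). HNRNPH3 was nearest to passing (log2 change -0.50 ± 0.09, adjusted p = 0.0634).

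Of the other lincRNAs among the 10 most abundant, MIR205HG and AC006262.5 differed more between the groups than the 3 given next. LINC00493, since renamed SMIM26 and typed protein-coding because it encodes a small mitochondrial protein, was highest at 182.32 and 157.52 FPKM under scramble and 201.72 and 160.92 FPKM under hairpins 1 and 7, and its groups overlapped. LINC00657, now NORAD, which binds PUMILIO proteins, was at 142.93 and 147.26 FPKM under scramble and 175.72 and 174.93 FPKM under the hairpins (log2 change 0.27 ± 0.09, adjusted p = 0.148). LINC00116, now MTLN and also the source of a small mitochondrial protein, was at 48.78 and 47.92 FPKM, then 37.37 and 53.38 FPKM, with overlapping groups.

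Some lincRNAs are the precursors of microRNAs, small RNAs that repress messenger RNAs matching their seed (bases 2 to 8, in capitals here). Of the 228 lincRNAs with a position in GENCODE 29, 12 held 16 microRNA genes with 26 mature sequences and 25 distinct seeds. The 69 without a position could not be searched. The mature microRNAs themselves were not measured, and a change in the host RNA does not give their level. Those shown, from RefSeq (GRCh38.p14), are the usual guide strands from the hosts of the MIR23AHG, MIR22HG, MIR210HG, MIR205HG and MIR200CHG loci, followed by the only mature sequence that 2 hosts share.
miR-23a-3p: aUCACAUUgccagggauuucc
miR-27a-3p: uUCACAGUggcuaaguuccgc
miR-24-3p: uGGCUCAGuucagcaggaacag
miR-22-3p: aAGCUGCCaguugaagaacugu
miR-210-3p: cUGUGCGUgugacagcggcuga
miR-205-5p: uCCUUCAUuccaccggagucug
miR-200c-3p: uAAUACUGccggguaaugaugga
miR-141-3p: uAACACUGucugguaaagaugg
miR-4435: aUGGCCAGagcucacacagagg

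Among these hosts MIR23AHG, given above, rose, and it was the only one of the 12 to pass. MIR22HG, the host of miR-22 and a stress-responsive RNA, was at 7.93 and 7.10 FPKM under scramble, 20.31 FPKM under hairpin 1 and 14.76 FPKM under hairpin 7 (log2 change 1.11 ± 0.18, adjusted p = 0.0540); it passed at a minimum mean of 5 FPKM (adjusted p = 0.0471) and scaled to TPM (0.0486). MIR210HG, the host of the hypoxia-linked miR-210, was at 5.02 and 7.30 FPKM under scramble, 11.26 FPKM under hairpin 1 and 10.99 FPKM under hairpin 7 (log2 change 0.78 ± 0.18, adjusted p = 0.0916). In both the knockdown libraries lay above the scramble libraries. WDR81, which overlaps MIR22HG on the opposite strand, was at 2.89 and 3.02 FPKM under scramble and 3.39 and 4.83 FPKM under hairpins 1 and 7.

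Values went both ways among hosts of microRNAs known from epithelial cells. MIR205HG, the host of miR-205, was at 162.48 and 152.14 FPKM under scramble, 119.91 FPKM under hairpin 1 and 57.10 FPKM under hairpin 7 (log2 change -0.92 ± 0.35, adjusted p = 0.187). It was the fifth most abundant lincRNA, and the hairpins differed more from each other than hairpin 1 did from the scramble libraries. The row named U47924.27, now MIR200CHG, hosts miR-200c and miR-141, which repress the ZEB factors of epithelial-mesenchymal transition. It was at 4.17 and 3.59 FPKM under scramble, 7.13 FPKM under hairpin 1 and 5.55 FPKM under hairpin 7 (log2 change 0.58 ± 0.17, adjusted p = 0.123).

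The remaining hosts had smaller differences. MIR4435-1HG, now MIR4435-2HG, was at 137.43 and 133.93 FPKM under scramble and 145.20 and 127.40 FPKM under hairpins 1 and 7. LINC00152, now CYTOR, was at 48.39 and 45.68 FPKM, then 51.61 and 48.94 FPKM. These 2 loci share the mature sequence of miR-4435 and are partial copies of each other, so how their reads were split is uncertain. LINC00969 was at 20.68 and 21.44 FPKM under scramble and 16.42 and 19.78 FPKM under the hairpins. RP11-65J21.3, the MIR193BHG locus, was at 1.26 and 0.76 FPKM, then 1.35 and 1.90 FPKM. In MIR4458HG, MIR4453 and LINC01057 the groups overlapped, with levels between 0.85 and 12.61 FPKM. Over a list of 27 microRNA host genes of any biotype, 13 were tested, 1 rose and 0 fell in limma (4 and 1 at an unadjusted p under 0.05, against 13.6% and 12.8% of all genes), and the median log2 change was 0.31 (0.58 over the 7 that are lincRNAs here), against -0.01 over all genes. Of all genes 1.45% were called higher. Those 7 are only the ones on the list. Over all 12 lincRNAs that held a microRNA gene by position the median was 0.12 (8 positive, 4 negative), against 0.08 over the 297.

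Hosts of snoRNAs, small RNAs that guide the modification and cleavage of ribosomal RNA, were another group. Of 28 listed host genes 24 were tested, and SNHG3 and SNHG12 fell, 2 of 24 (1.11% of all genes fell), with a median log2 change of -0.38 and 17 negative values (19 under quantile normalization). Neither is typed lincRNA. At an unadjusted p under 0.05, 10 of the 24 were lower and 0 higher, against 12.8% and 13.6% of all genes. The 6 that are lincRNAs here had a median of 0.05; 0 passed in limma and 2 had an unadjusted p under 0.05. SNHG15 was at 45.19 and 46.07 FPKM under scramble, 31.40 FPKM under hairpin 1 and 22.46 FPKM under hairpin 7, with both hairpins lower (log2 change -0.76 ± 0.17, adjusted p = 0.0886). The row named SNORA76, now SNHG25, was at 4.43 and 2.13 FPKM under scramble and 0.61 FPKM under hairpin 1, and was listed at 0 with hairpin 7 (log2 change -1.70 ± 0.39, adjusted p = 0.0877). It met the level rule only through the scramble group, where it is high.

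SNHG8 was at 69.84 and 66.56 FPKM under scramble and 82.13 and 61.18 FPKM under hairpins 1 and 7. RP11-304L19.5, now SNHG19, was at 53.57 and 46.10 FPKM, then 54.23 and 59.38 FPKM. SNHG9 was at 18.06 and 14.36 FPKM, then 15.01 and 19.39 FPKM, and EPB41L4A-AS1 at 2.33 and 5.23 FPKM, then 6.15 and 2.07 FPKM. In SNHG8, SNHG9 and EPB41L4A-AS1 the groups overlapped. All 8 genes for proteins of the snoRNA particles had a negative log2 change, also scaled to TPM and under quantile normalization (median -0.46); 0 passed in limma and 5 had an unadjusted p under 0.05, all lower (12.8% of all genes were lower by that measure), with NOP56 nearest (log2 change -0.83 ± 0.13, adjusted p = 0.0533).

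**Figure D4:**
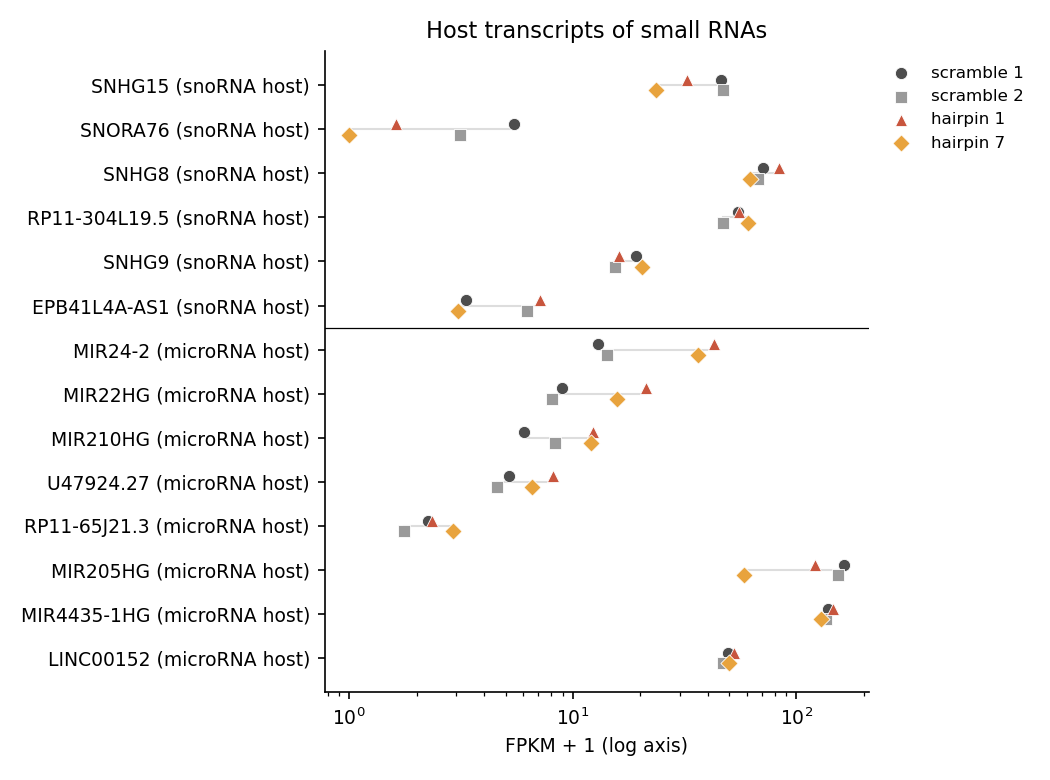
FPKM + 1 (log axis) in each library for 6 lincRNAs that host snoRNAs (above the line) and 8 that host microRNAs (below it); the symbols are those of the deposited table. SNHG15, SNORA76 and MIR205HG are lower with both hairpins, MIR24-2, MIR22HG, MIR210HG and U47924.27 are higher with both, and the others lie close together or overlap.

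A few rows typed lincRNA, 7 in all, carry the name of a small structured RNA. Of these, the row named SNORA76 is the host gene SNHG25 given above, and the row named 5S_rRNA is now LINC02167. SNORD3A, a gene for U3, the snoRNA needed for the first cuts of ribosomal RNA, was at 64.93 and 40.58 FPKM under scramble, 8.96 FPKM under hairpin 1 and 0.40 FPKM under hairpin 7. That is the lowest log2 change of the 297 on the log2(FPKM + 1) scale (at a pseudocount of 0.01 SNORA76, at -5.29, was below its -4.74), and it did not pass (-3.81 ± 0.94, adjusted p = 0.0954). On the log2(FPKM + 1) scale the hairpins differed from each other far more than the scramble libraries did, though not in FPKM. SNORD3B-2, another U3 copy, was at 4.90 and 3.94 FPKM, then 2.45 and 2.53 FPKM. Reads that match several U3 copies make both values uncertain. RMRP, the RNA of RNase MRP, was at 16.54 and 7.71 FPKM under scramble and 9.29 and 17.96 FPKM under the hairpins, and TERC, the telomerase RNA, at 0.63 and 1.17 FPKM, then 1.09 and 1.19 FPKM; in both the groups overlapped. How well such RNAs were captured depends on a size selection that is not given in the sources used here.

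Of 29 listed cancer-linked long noncoding RNAs 13 were tested: LINC00511 rose, 0 fell in limma (5 higher and 1 lower at an unadjusted p under 0.05), and the median log2 change was 0.31, against -0.01 over all genes. Over all genes 2.56% were called, and 13.6% were higher and 12.8% lower at an unadjusted p under 0.05. The 8 that are lincRNAs here all had a positive log2 change, except that RP11-438N16.1 turned negative (-0.05) under quantile normalization. LUCAT1, a stress-responsive RNA of the NRF2 pathway, was at 0.60 and 0.43 FPKM under scramble, 2.07 FPKM under hairpin 1 and 2.57 FPKM under hairpin 7, with no overlap (log2 change 1.13 ± 0.21, adjusted p = 0.0670, and 0.0452 with no mean trend). It met the level rule only through the knockdown group, where it is high. CRNDE was at 17.95 and 16.75 FPKM, then 21.49 and 22.05 FPKM (adjusted p = 0.141), and CCAT1, an enhancer-derived RNA, at 6.18 and 6.31 FPKM, then 10.63 and 8.09 FPKM (adjusted p = 0.140). RP11-438N16.1, now LINC01234, was at 4.08 and 4.24 FPKM, then 3.71 and 4.72 FPKM, with overlap. Lists of p53-, stress- and interferon-linked and of cis-acting RNAs had 4 tested genes each, of which 0 passed in limma, with 2 and 1 at an unadjusted p under 0.05. From them TP53TG1 (9.86 and 7.52 FPKM, then 8.90 and 8.48 FPKM) and JPX (8.13 and 13.15 FPKM, then 13.78 and 10.64 FPKM) are lincRNAs here whose groups overlapped.

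Enzymes that end or degrade such transcripts were also read. Of 22 genes of the nuclear exosome and its adaptors, which remove unstable nuclear RNA, 0 passed in limma; 7 had an unadjusted p under 0.05, 6 lower (12.8% of all genes) and 1 higher (13.6% of all genes), and 19 log2 changes were negative, 17 when scaled to TPM (median -0.19). EXOSC2 was nearest to passing (log2 change -0.72 ± 0.14, adjusted p = 0.0722). Of 15 genes of the Integrator complex, which ends transcription at many noncoding loci, 0 passed in limma and 0 had an unadjusted p under 0.05, with a median log2 change of 0.01.

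Neighbouring protein-coding genes were read for the lincRNAs with a GENCODE 29 position. The 7 of the 9 called lincRNAs with a position had 13 tested neighbours, of which LYPD5, KCNN4 and NTMT1 passed, all 3 in the direction of the lincRNA. Of all 324 tested neighbours of any of the 297, 15 passed (4.63%, against 2.56% of all genes). Over 59 pairs with a gap of up to 10 kb, Pearson's r between the log2 changes of lincRNA and neighbour was 0.63, and 0.53 over 58 pairs without AC115522.3. It was 0.23 over 112 pairs 10 to 100 kb apart and 0.06 over 81 pairs farther apart. By Spearman's rho the values of these 3 groups were 0.56, 0.27 and 0.25, so that by rank the groups beyond 10 kb were nearly alike. Among pairs sharing sequence or start region Pearson's r was 0.16 over 48 head-to-head pairs, 0.25 over 28 pairs overlapping on opposite strands and 0.17 over 17 overlapping on the same strand, the last with a Spearman's rho of opposite sign (-0.34). The points of a pair come from the same 4 libraries, reads near gene ends may be counted to either gene, and pairs that share a gene are not independent, so these values are descriptions.

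**Figure D5:**
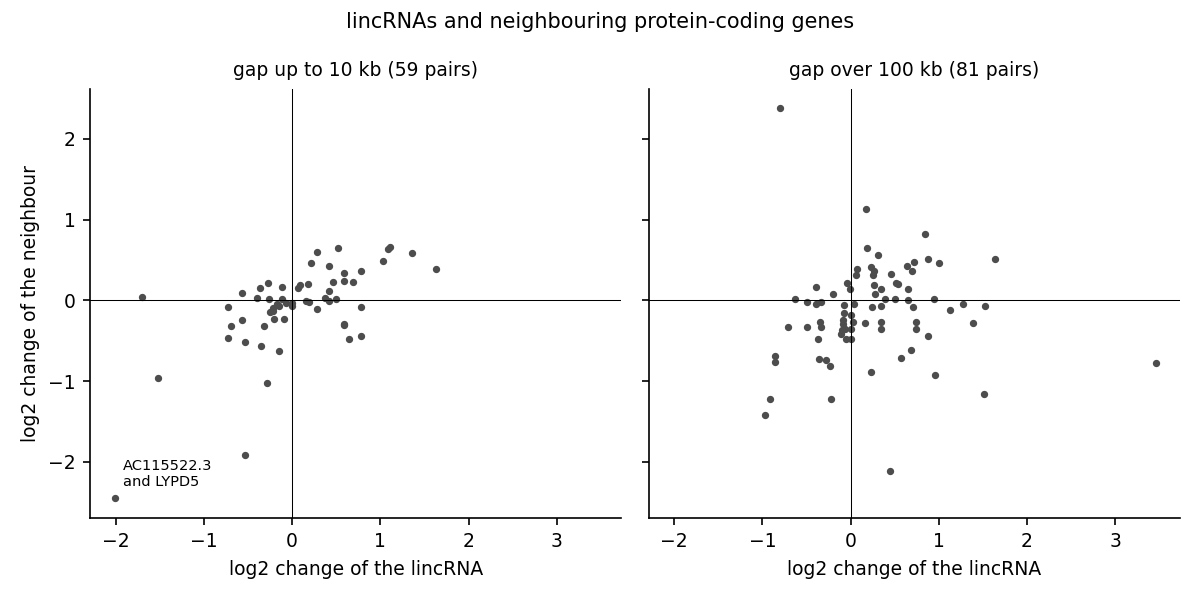
Log2 change of the neighbouring protein-coding gene (vertical) against that of the lincRNA (horizontal), both of log2(FPKM + 1), for 59 pairs with a gap of up to 10 kb (left) and 81 pairs over 100 kb apart (right). Pairs that overlap or lie head to head are left out; AC115522.3 and LYPD5 are the lowest of the close pairs. Spearman's rho is 0.56 for the close and 0.25 for the distant pairs, and Pearson's r 0.63 and 0.06.

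A stretch of chromosome 19 held several lower values. RP11-15A1.3 (chromosome 19, 43891804 to 43901805, minus strand) was at 30.81 and 32.89 FPKM under scramble, 7.60 FPKM under hairpin 1 and 13.12 FPKM under hairpin 7, and did not pass (log2 change -1.58 ± 0.25, adjusted p = 0.0531), though it did at a minimum mean of 5 FPKM (adjusted p = 0.0458). The zinc finger gene ZNF404 overlaps it on the same strand, so their reads could not be told apart, and fell (log2 change -1.45 ± 0.12, adjusted p = 0.0173). ZNF283 on the left fell by 1.84 on the log2 scale (adjusted p = 0.0101) and ZNF45 on the right by 0.81 (adjusted p = 0.0409). AC115522.3, LYPD5 and KCNN4 lie on the same stretch at lower coordinates, and it was singled out after its values were seen. Of the 15 lincRNAs placed on chromosome 19, among the 228 with a position, 3 were called (2.56% of all genes were), and 6 met the 1.5-fold rule (5.58% of all genes did), 4 below and 2 above.

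At some loci the lincRNA and its neighbour did not go together. AC006262.5, now IGFL2-AS1, was at 25.53 and 28.66 FPKM under scramble, 44.33 FPKM under hairpin 1 and 176.04 FPKM under hairpin 7, higher in both but 1 hairpin far more (log2 change 1.68 ± 0.64, adjusted p = 0.185). Its neighbour IGFL1, 26669 bp away, was at 12.02 and 10.31 FPKM under scramble, 3.77 FPKM under hairpin 1 and 3.49 FPKM under hairpin 7, and fell (log2 change -1.39 ± 0.13, adjusted p = 0.0218). RP11-385F7.1 starts 217 bp from CD2AP, head to head, and was at 0.19 and 1.32 FPKM, then 2.70 and 5.06 FPKM (adjusted p = 0.115), beside 23.88 and 23.21 FPKM, then 28.05 and 22.25 FPKM, for CD2AP (log2 change 0.08 ± 0.14). RP6-65G23.3, head to head with MAP3K9, was at 3.51 and 2.74 FPKM under scramble and 1.69 FPKM under hairpin 1, and was listed at 0 with hairpin 7 (adjusted p = 0.182), while MAP3K9 was at 5.94 and 5.40 FPKM, then 4.85 and 5.98 FPKM (log2 change -0.06 ± 0.15). RP11-385F7.1 met the level rule only through the knockdown group, and RP6-65G23.3 only through the scramble group.

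Where the hairpins differed most, each value is from a single library, so the difference has no replicate. Of those below, CTD-2207P18.2, RP11-6J24.6, the row named 5S_rRNA and RP11-53M11.3 met the level rule only through the knockdown group. Lower with hairpin 7, besides SNORD3A, were CTD-2147F2.1 (6.70 FPKM under hairpin 1 and 1.29 FPKM under hairpin 7, against 1.45 and 1.64 FPKM under scramble), LINC02595 (2.36 FPKM under hairpin 1 and listed at 0 with hairpin 7, against 1.18 and 1.02 FPKM) and CTD-2207P18.2 (3.32 and 0.50 FPKM, against 0.21 and 0.28 FPKM). Higher with hairpin 7, besides AC006262.5, were RP11-6J24.6 (0.47 FPKM under hairpin 1 and 6.02 FPKM under hairpin 7, against 0.56 FPKM and a listed 0), the row named 5S_rRNA, now LINC02167 (0.52 and 3.43 FPKM, against 0.04 and 0.10 FPKM) and RP11-53M11.3 (1.13 and 4.49 FPKM, against 1.11 FPKM and a listed 0). Among the 11 rows left out for zeros, RP11-626H12.1 was at 3.71 and 3.35 FPKM under scramble and 0 with both hairpins, and RP11-525A16.4 was listed at 0 in both scramble libraries, at 0.08 FPKM under hairpin 1 and at 39.15 FPKM under hairpin 7.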

How the data were processed

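RNA sequencing libraries, 2 scramble and 2 NIPBL knockdown, were read from a table of 344810 rows, 53777 of them with an Ensembl gene identifier. The authors deposited them as FPKM per gene, to 2 decimals. STAR and RSEM are named, without versions, in the submitters' processing notes. For build, annotation, strand setting and filters, nothing is stated there or in the labels. The files hold no counts, so depth is unknown, and no counting intervals are given.

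Values were tested as log2(FPKM + 1), with a pseudocount of 1, in limma 3.58.1 under R 4.3.3 (lmFit and trended eBayes) over the 12834 genes whose mean reached 1 FPKM. Two-sided p-values were Benjamini-Hochberg adjusted over all 12834, and 0.05 was the threshold. Residual degrees of freedom were 2 and prior ones 2.87, and the fit was tested on simulated data. Log2 changes are knockdown minus scramble and understate the change of low genes; errors are standard errors. Folds compare mean FPKM. No exact permutation test was used, since 2 libraries against 2 cannot go below p = 0.333.

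The lincRNAs and the gene lists were chosen with earlier results of these data known. Named lincRNAs are those that passed, the 8 highest and 8 lowest changes without overlap, the 10 most abundant, list members, microRNA hosts, the 4 per direction that differed most between hairpins, and the 3 on either side of the level threshold; others are marked. Positions and neighbours were matched by identifier to GENCODE 29, in place of the RefSeq gene table first intended. Promoters and mature microRNAs are from RefSeq. Alternatives were other filters, pseudocounts, scalings and left-out libraries.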

Additional observations from a re-analysis of the deposited data

How the results depend on the processing

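No paired analysis was possible because replicate numbers here were given by sample order, which pairs no libraries. Testing every row of the table, as first planned, was not usable, since most of the spreads were exactly 0; rows above 0 in any library, chosen after seeing the data, took its place (25230 genes). There 0 lincRNAs (0 higher, 0 lower) and 1 gene passed in limma. At an unadjusted p under 0.05 there were 60 of the 297 lincRNAs and 4275 of the 25230 genes. NIPBL had an adjusted p of 0.118 at the same log2 change of -1.418. With the scramble libraries averaged into 1, every lincRNA call, higher or lower, and the call of every other gene was lost. NIPBL lost its call too, at a log2 change of -1.418. With unnamed rows added, 3 lincRNAs (2 higher, 1 lower) and 195 genes passed. Scaled to TPM, the split was 4 higher and 2 lower, against 4 and 5. The median log2 change of 0.08 was 0.115 at a minimum mean of 5 FPKM, 0.122 scaled to TPM and 0.033 after quantile normalization. The 1.5-fold count of 35 was 16 at a minimum mean of 5 FPKM, where 77 lincRNAs remained. With all 297 kept it was 48 at a pseudocount of 0.1 and 50 at 0.01. It was 39 scaled to TPM and 47 with the scramble libraries averaged.

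Leaving out each library in turn, the lincRNAs that passed ranged from 0 to 70 (0 to 40 higher, 0 to 30 lower), all genes from 0 to 4532, the 1.5-fold count from 57 to 69, the median log2 change from 0.063 to 0.126 and the NIPBL change from -1.568 to -1.269. Without scramble 1 or without scramble 2, 0 passed and NIPBL had adjusted p-values of 0.257 and 0.262. Without hairpin 1, 70 lincRNAs passed, and without hairpin 7, 47 did; a lone sample is then assumed to vary like the other group. The 1.5-fold count can only rise when a library is left out, since fewer values then have to meet the rule. Among the 9 called lincRNAs each log2 change kept its sign in every alternative that gave a value. LINC00973, MIR24-2 and CTD-2086O20.3 lost their call only over rows above 0, without either scramble library and with these averaged. The other 6 lost it in 1 or 2 further settings, among unnamed rows added, TPM scaling and no mean trend. MIR22HG, RP11-15A1.3 and LUCAT1 gained a call in 1 or 2 settings that kept all libraries. The cause was not tested. In subsets chosen after seeing the data, 9 of 270 lincRNAs passed without small RNA, coding, pseudogene and snoRNA types. Without those known to overlap a protein-coding gene, 8 of 243 passed. Of all genes tested, 2.56% passed. Both subsets keep the 69 lincRNAs without a position, whose later type and overlap are unknown, and 2 of those that passed are among these 69.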
